A study of Mus musculus with 224 samples.

Results

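The genes described here encode the proteins of the cytosolic ribosome, measured in soleus muscle, liver and visceral adipose tissue of 3 inbred mouse strains. Members were the protein-coding genes whose symbol is Rpl or Rps followed by a number, or Rplp0, Rplp1, Rplp2 or Rpsa, without the Rps6k kinases and without the symbols that end in -ps and a number. The annotation holds 86 such genes. Of these, 83 of the 12611 genes in the liver table, 81 of the 13637 genes in the muscle table and 82 of the 16542 genes in the adipose table were members, and 81 were in all 3 tables. One of them, Rps19bp1, meets the rule by its letters but encodes a protein that binds Rps19 and is no ribosomal subunit.

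BALB/cJ, DBA/2J (labelled DBA/2JJ) and C57Bl/6J mice were fed HFD, a diet high in fat, or RC, regular chow, and tissue was taken on day 5, 13 or 33, as the sample labels give the days. The labels name no transgene, sex or age for these mice. Each tissue had 18 groups of strain, diet and day with 4 animals each, so that 24 animals stood for each strain and 36 for each diet, and the 72 animals were the same in the 3 tissues. RNA was sequenced as 100-base single reads from a stranded, poly(A)-selected library. The sample titles name the animal, and its samples from the 3 tissues share that name. Within a tissue, each library used here came from a separate animal.

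The cytosolic ribosome is a large and a small subunit of protein and ribosomal RNA, and each ribosome holds 1 copy of nearly every ribosomal protein, apart from the Rplp1 and Rplp2 pairs on the stalk. Ribosomal protein mRNAs are among the most abundant in a cell, and many begin with a C and a run of pyrimidines (a 5′ terminal oligopyrimidine, or TOP, start) through which nutrient signals acting on mTOR set how fast they are translated. Because these mRNAs are abundant and short, mammalian genomes hold many intronless copies of them, most annotated as processed pseudogenes, and a short read from one copy can match another.

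A stretch of 4 members is shown beside that of a copy whose level differed between strains in the opposite direction, since single bases tell each pair apart. All are coding-strand sequences of the GENCODE transcripts on GRCm38, 60 bases long, with the base that differs in capitals and positions counted from 1 at the member's start codon. Rpl26 (chr11:68901583-68906989, plus strand, 46.3% of its 339 coding windows of 100 bases found in another transcript) and Gm15772 (chr5:3236431-3236868, a processed pseudogene) differ at 2 of 438 coding bases, here by C177T.
Rpl26: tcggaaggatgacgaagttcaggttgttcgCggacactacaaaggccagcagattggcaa
Gm15772: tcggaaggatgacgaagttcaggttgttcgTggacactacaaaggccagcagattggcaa
Rpsa (chr9:120127689-120132369, plus strand) and Rpsa-ps10 (chr3:150072658-150073542, a processed pseudogene) differ at 6 of 885 bases, here by T210C and C219T.
Rpsa: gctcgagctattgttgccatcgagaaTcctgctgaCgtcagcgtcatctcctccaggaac
Rpsa-ps10: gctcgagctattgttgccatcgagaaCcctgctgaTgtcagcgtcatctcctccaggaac
Rps18 (chr17:33951999-33956001, minus strand) and Gm10260 (chr13:97760072-97760632, annotated as protein-coding) differ at 4 of 459 bases, here by A337C and G371A.
Rps18: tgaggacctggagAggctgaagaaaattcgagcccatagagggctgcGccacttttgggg
Gm10260: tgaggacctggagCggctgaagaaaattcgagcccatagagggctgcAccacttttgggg
Rplp0 (chr5:115559467-115563727, plus strand) and Gm8730 (chr8:102864845-102865798, a processed pseudogene) differ at 12 of 954 bases, here by A390G and A393G.
Rplp0: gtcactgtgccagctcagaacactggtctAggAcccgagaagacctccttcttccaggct
Gm8730: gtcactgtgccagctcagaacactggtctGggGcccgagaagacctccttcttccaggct

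Levels are in CPM, the reads of a gene scaled to the library size. The liver libraries held 18078488 to 31991289 reads, the muscle libraries 19945355 to 33370016 and the adipose libraries 19783483 to 46795074. Genes that separate the strains in the other tissues were read in every library: 214 of 216 libraries were nearest to the strain on their label. The remaining 2 are adipose libraries labelled BALB/cJ HFD. The library of day 5 matched DBA/2J at 94.7% and BALB/cJ at 7.7% of these genes, and the library of day 33 matched C57Bl/6J at 90.9% and BALB/cJ at 0.0%. Both had 17.81 and 18.39 log2 CPM of the insulin gene Ins2, against -3.81 to 8.19 in the other adipose libraries, and 2.79 and 3.61 log2 CPM of the adipocyte gene Adipoq, against 9.12 to 12.64. Adipose results are given with and without them, and adipose levels of BALB/cJ are those of the other 22 libraries. In muscle, 1 C57Bl/6J library (RC, day 33) had a slow fibre marker mean of 4.96 log2 CPM, against at least 11.03 in BALB/cJ and 11.68 in DBA/2J libraries. A member was called when limma's two-sided p, adjusted by Benjamini-Hochberg over all genes of the tissue, was under 0.05.

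Members spanned a wide range of levels per length, in CPM per kilobase of coding sequence averaged over libraries. By this measure Rpl41, which encodes the shortest protein of the large subunit, was highest in each tissue. It stood at 1612 in liver, 1024 in soleus and 4139 in adipose tissue. Its coding sequence is 78 bases of a 437-base transcript, against 171 of 390 for Rps29 and 345 of 499 for Rplp1. Reads can also fall on the rest of a transcript, so dividing by coding length raises members with short coding sequences. An order by transcript length was not computed. Rps29, a zinc-binding protein of the small subunit, had 736, 734 and 1646 CPM per kilobase in liver, muscle and adipose tissue, and the stalk protein Rplp1 had 695, 676 and 1519. In liver the lowest were Rps27rt (2.68), Rpl36al (2.22) and Rpl3l (0.435). In muscle they were Rpl29 (37.9), Rps19bp1 (13.2) and Rpl13a (6.13), of which Rpl29 averaged 12.6 in BALB/cJ, 13.5 in DBA/2J and 87.6 in C57Bl/6J. In adipose tissue they were Rps19bp1 (31.2), Rps27rt (15.04) and Rpl3l (1.99).

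The paralogs differed most by tissue for the pair Rpl3 and Rpl3l, the general and the striated-muscle form of a protein at the peptidyl transferase centre. Rpl3l stood at 329 and Rpl3 at 45.7 CPM per kilobase in muscle, while Rpl3l stood at 0.435 and Rpl3 at 164 in liver and at 1.99 and 336 in adipose tissue. Rpl22l1, whose mRNA is repressed by its paralog Rpl22 in mouse cells, was below Rpl22 in each tissue, at 65.4 and 226.3 in liver, 68.6 and 255.6 in muscle, and 129.5 and 510.2 in adipose tissue. Rps27l, a p53 target, was close to Rps27 in liver (457 and 391). It was below Rps27 in muscle (129 and 381) and in adipose tissue (167 and 1490.3). Of the coding windows of 100 bases, 89.3% of Rpl3, 58.5% of Rpl22l1 and 100% of Rps27 were found in another transcript. Rpl3l, Rpl22 and Rps27l had no such window. The coding sequence is also a smaller part of the transcript in Rps27l than in Rps27. How shared reads and transcript length bear on the order within a pair was not tested.

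In liver, DBA/2J had 8 members higher and 13 lower than C57Bl/6J, where 28.6% and 28.8% of all 12611 genes were called higher and lower. BALB/cJ had 2 higher and 27 lower than C57Bl/6J, against a background of 28.6% and 29.3%, and 3 higher and 36 lower than DBA/2J, against 24.1% and 24.6%. The median log2 fold change over the 83 members was 0.04, -0.10 and -0.14 in these 3 comparisons, where the median over all genes was within 0.01 of 0. The comparisons with C57Bl/6J share its libraries. Few calls were large: 4, 6 and 2 members differed at least 2-fold, and 13, 17 and 33 by less than 0.5 on the log2 scale. Of 49 large-subunit members 4 were higher and 7 lower in DBA/2J than C57Bl/6J, 0 and 16 in BALB/cJ against C57Bl/6J, and 1 and 19 in BALB/cJ against DBA/2J. Of 33 small-subunit members these counts were 3 and 6, 1 and 11, and 2 and 17, and no test compared the subunits.

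In muscle, DBA/2J had 36 members higher and 9 lower than C57Bl/6J, where 22.9% and 24.03% of all 13637 genes were called, and quantile normalization gave 23 higher and 12 lower. BALB/cJ had 3 higher and 23 lower than C57Bl/6J, against 24.6% and 26.5%, and 5 higher and 54 lower than DBA/2J, against 25.3% and 25.4%. The differences were small, with 37 of 45, 17 of 26 and 52 of 59 called members under 0.5 on the log2 scale and member medians of 0.09, -0.06 and -0.16. Of 48 large-subunit members 25 were higher and 4 lower in DBA/2J than C57Bl/6J, and of 32 small-subunit members 11 were higher and 5 lower. The slow fibre markers had a median of 11.97 log2 CPM in DBA/2J, 11.46 in BALB/cJ and 11.59 in C57Bl/6J. With slow minus fast fibre markers in the fit, 29 members were higher and 10 lower in DBA/2J than C57Bl/6J. Without the C57Bl/6J library of low slow fibre markers, DBA/2J had 34 members higher and 10 lower than C57Bl/6J. BALB/cJ then had 3 higher and 24 lower than C57Bl/6J. The shares of all genes above are those of the main fit. They do not belong to the fits with quantile normalization, with fibre markers or without that library.

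In adipose tissue without the 2 libraries, DBA/2J had 1 member higher and 49 lower than C57Bl/6J, where 29.8% and 25.1% of all 16540 genes were called. With all libraries it had 1 higher and 44 lower, against 24.6% and 22.04%. BALB/cJ had 0 higher and 10 lower than C57Bl/6J, against 12.3% and 9.96%, or 0 and 9 with all libraries, against 12.1% and 9.99%. BALB/cJ had 8 higher and 2 lower than DBA/2J, against 24.5% and 26.02%, or 6 and 3 with all libraries, against 18.9% and 21.4%, a total of 9 that became 23 without 1 DBA/2J library (HFD, day 13). The member median was -0.40 for DBA/2J and -0.21 for BALB/cJ against C57Bl/6J, where all genes had medians within 0.05 of 0. The 1 higher member was Rps19bp1 (0.21, adjusted p = 0.0302), and the lower ones reached from Rpl29 at -3.23 ± 0.12 to differences such as those of Rpl22 (-0.40 ± 0.13, adjusted p = 0.0119) and Rpl7 (-0.37 ± 0.14, adjusted p = 0.0248). Markers of B cells moved with these differences, with a median of 2.01 log2 CPM in DBA/2J and 7.92 in C57Bl/6J. With their mean as a term in the fit, DBA/2J had 13 members higher and 8 lower than C57Bl/6J, where 18.02% and 15.7% of genes were called, and Rpl22 stood at 0.00 and Rpl7 at 0.08. In whole tissue, fewer cells of a type and less RNA per cell cannot be told apart.

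**Figure D1:**
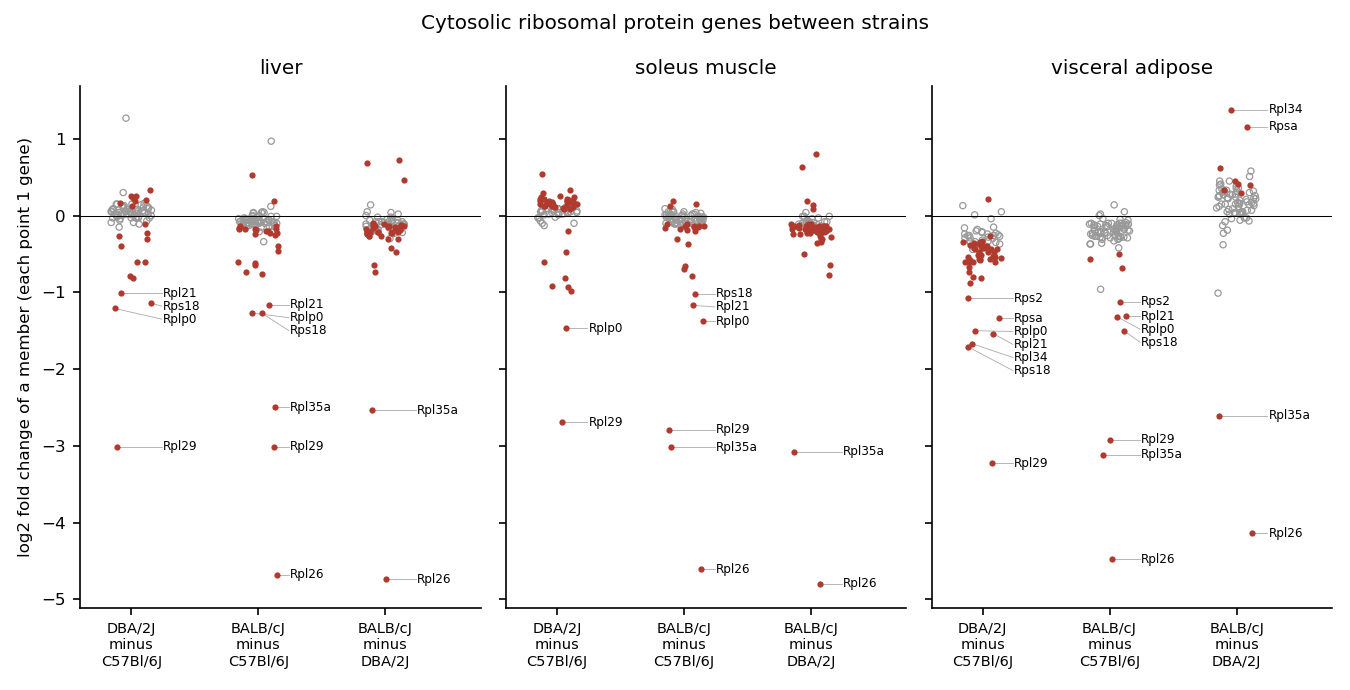
Log2 fold change of each member in the 3 strain comparisons in soleus muscle, liver and visceral adipose tissue (adipose without the 2 libraries). Each point is 1 gene, filled red where limma's adjusted p was under 0.05 and open grey otherwise, and called members with a log2 difference of at least 1 are named. Most points lie near 0, with Rpl26, Rpl29 and Rpl35a far below it.

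Some members were called in the same direction in every tissue, counted here without the 2 adipose libraries over the 81 members and 11473 genes in all 3 tables. Lower in DBA/2J than C57Bl/6J were 9, where 4.87% of genes were: Rpl21, Rpl29, Rpl34, Rplp0, Rps2, Rps3a1, Rps18, Rps28 and Rpsa. Lower in BALB/cJ than C57Bl/6J were 10, where 3.13% of genes were: Rpl21, Rpl26, Rpl29, Rpl30, Rpl35a, Rplp0, Rps2, Rps3a1, Rps14 and Rps18, and with all libraries Rpl30 was not among them. Higher than C57Bl/6J in all 3 tissues were 0 members in DBA/2J and 0 in BALB/cJ, where 6.28% and 3.46% of genes were. Members and their copies can share reads, and how these were placed in each strain was not tested. Against DBA/2J, BALB/cJ was lower for Rpl26 and Rpl35a and higher for Rpl34 and Rpsa in all 3 tissues, where 4.36% and 3.36% of genes were. For DBA/2J against C57Bl/6J, 14 members were called in opposite directions in different tissues, where 17.8% of genes were. With all libraries 11 members were, against 15.8% of genes. Each of these members was lower in adipose tissue, and their share was near that of all genes. With the B cell marker mean in the adipose fit, 1 such member was found, against 12.7% of genes: Rpl13a, lower in liver and higher in muscle. There Rpl4, Rpl7, Rpl13 and Rps3 stood at 0.12, 0.08, 0.13 and 0.14 and Rpl15 at -0.11 in adipose tissue, none of them called.

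Rpl26, a large-subunit protein near the exit of the peptide tunnel, showed the widest difference of any member, and it was in BALB/cJ. In liver the lowest, median and highest Rpl26 levels were 2.74, 3.94 and 6.12 CPM in BALB/cJ, 68.3, 104 and 191 CPM in DBA/2J, and 80.6, 96.8 and 170.4 CPM in C57Bl/6J. Every BALB/cJ liver was below every liver of the other strains, and those strains overlapped. Rpl26 was 25.6-fold lower in BALB/cJ than C57Bl/6J liver (log2 fold change -4.68 ± 0.08 SE, n = 24 each, limma adjusted p = 2.46e-51) and differed by 0.06 between DBA/2J and C57Bl/6J (adjusted p = 0.474).

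The copy Gm15772 ran the other way. It had 53.5, 61.9 and 80.2 CPM (lowest, median, highest) in BALB/cJ liver, 0, 0.406 and 0.866 CPM in DBA/2J and 0.125, 0.263 and 1.83 CPM in C57Bl/6J. All BALB/cJ livers were above all others, with a log2 fold change of 7.57 ± 0.26 against C57Bl/6J (adjusted p = 7.15e-34). With the reads of both rows summed, the BALB/cJ difference from C57Bl/6J was -0.63 ± 0.07 (adjusted p = 2.08e-11), against -4.68 for Rpl26 alone.

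The same was measured in the other tissues. In muscle Rpl26 had 1.899, 3.24 and 8.91 CPM in BALB/cJ, 85.2, 103 and 156 CPM in DBA/2J and 78.9, 94.7 and 108 CPM in C57Bl/6J, without overlap between BALB/cJ and the rest. There the log2 fold change of BALB/cJ against C57Bl/6J was -4.61 ± 0.07 alone (adjusted p = 1.26e-51) and -0.58 ± 0.04 summed with Gm15772. In adipose tissue Rpl26 had 5.200, 8.55 and 26.3 CPM in BALB/cJ, 116, 157 and 383 CPM in DBA/2J and 116, 243.2 and 363 CPM in C57Bl/6J, again without overlap. Its log2 fold change against C57Bl/6J was -4.48 ± 0.16 without the 2 libraries (adjusted p = 3.06e-31), -4.09 ± 0.27 with them, and -0.58 ± 0.13 summed with Gm15772 over all libraries.

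Rplp0, which anchors the stalk that recruits translation factors, was lower in both BALB/cJ and DBA/2J. In liver it had 106, 137 and 184 CPM in BALB/cJ, 99.5, 137 and 255.2 CPM in DBA/2J and 263, 309 and 508 CPM in C57Bl/6J. All C57Bl/6J livers were above all others. The log2 fold change against C57Bl/6J was -1.27 ± 0.07 in BALB/cJ (adjusted p = 6.34e-24) and -1.21 ± 0.07 in DBA/2J (adjusted p = 5.2e-23), and with the 3 copy rows of the liver table summed in it was -0.77 ± 0.07 and -0.73 ± 0.07. Gm8730 had 31.5, 39.2 and 52.7 CPM in BALB/cJ, 23.6, 36.9 and 72.5 CPM in DBA/2J and 0.290, 0.723 and 1.67 CPM in C57Bl/6J livers.

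In muscle Rplp0 had 180.2, 200.3 and 266 CPM in BALB/cJ, 155, 193 and 251.6 CPM in DBA/2J and 450.4, 520.3 and 648 CPM in C57Bl/6J. C57Bl/6J was again above without overlap, with log2 fold changes of -1.38 ± 0.04 in BALB/cJ (adjusted p = 1.3e-39; -0.86 summed) and -1.47 ± 0.04 in DBA/2J (adjusted p = 5.1e-41; -0.96 summed). In adipose tissue they were -1.32 in BALB/cJ without the 2 libraries and -1.50 ± 0.19 in DBA/2J (adjusted p = 3.06e-09), where the strains overlapped.

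Rps18, in the head of the small subunit where it touches the large one, had 53.3, 72.6 and 106 CPM in BALB/cJ liver, 34.5, 76.9 and 183 CPM in DBA/2J and 136, 161 and 301 CPM in C57Bl/6J. The BALB/cJ and C57Bl/6J livers did not overlap. Rps18 was 2.42-fold lower in BALB/cJ (log2 fold change -1.27 ± 0.10, adjusted p = 1.03e-17) and 2.21-fold lower in DBA/2J (-1.14 ± 0.10, adjusted p = 7.67e-16). Gm10260 had medians of 56.7, 58.9 and 0.275 CPM in BALB/cJ, DBA/2J and C57Bl/6J livers, and the summed differences of Rps18 from C57Bl/6J were -0.44 ± 0.10 and -0.32 ± 0.10 in BALB/cJ and DBA/2J. In muscle the differences of -1.02 ± 0.05 in BALB/cJ and -0.92 ± 0.05 in DBA/2J became -0.16 ± 0.05 (adjusted p = 0.0031) and -0.08 ± 0.05 (adjusted p = 0.132) with the copy row summed in.

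Rpsa, a small-subunit protein also known as the laminin receptor, was low in DBA/2J. In liver it had 213.7, 263 and 339.5 CPM in BALB/cJ, 106, 156 and 249.2 CPM in DBA/2J and 221.2, 268 and 427 CPM in C57Bl/6J. The DBA/2J range reached into that of the other strains only at its top. DBA/2J differed from C57Bl/6J by -0.81 ± 0.06 on the log2 scale (adjusted p = 3.45e-17) and BALB/cJ from DBA/2J by 0.73 ± 0.06 (adjusted p = 3.03e-15). Rpsa-ps10 had 0.167, 0.355 and 0.700 CPM in BALB/cJ, 49.4, 76.2 and 122 CPM in DBA/2J and 0.256, 0.615 and 1.94 CPM in C57Bl/6J livers. Summed with it, the DBA/2J difference from C57Bl/6J was -0.25 ± 0.06 in liver (adjusted p = 0.000807) and -0.12 ± 0.05 in muscle (adjusted p = 0.0587), where Rpsa alone gave -0.61 ± 0.06. In adipose tissue the difference was -1.34 ± 0.20 alone and -0.76 ± 0.20 summed.

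**Figure D2:**
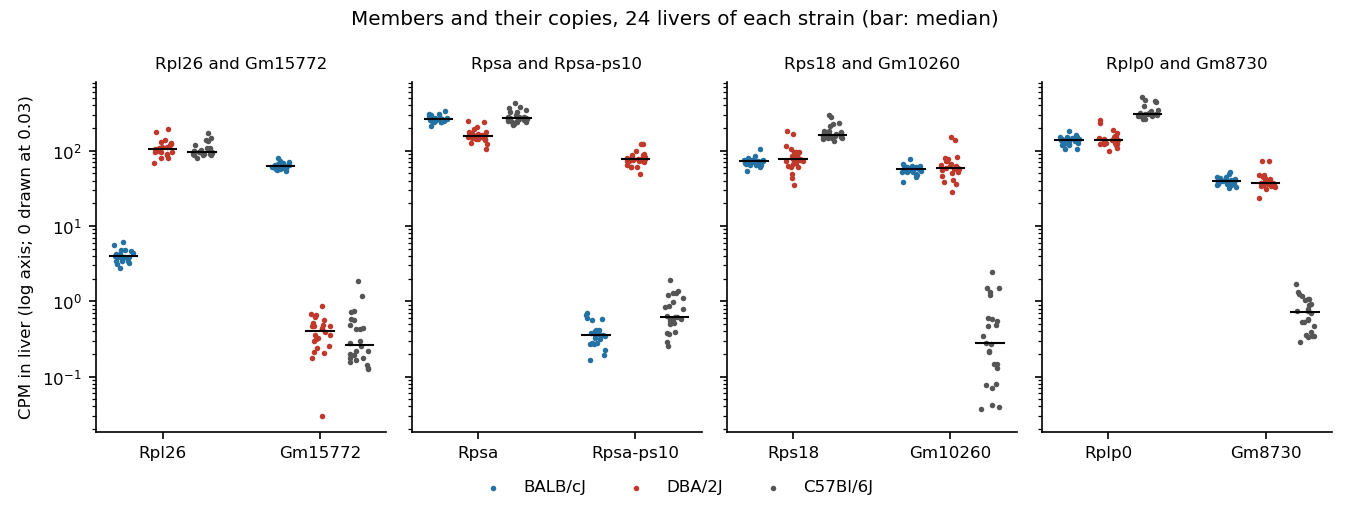
CPM on a log axis (0 drawn at 0.03) of Rpl26, Rpsa, Rps18 and Rplp0 and of a copy of each in 24 livers of each strain, 1 point per liver and a bar at the median. Where a strain is low for the member it is high for the copy: Gm15772 has medians of 61.9 CPM in BALB/cJ, 0.406 in DBA/2J and 0.263 in C57Bl/6J.

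Rpl29, a large-subunit protein whose loss leaves mice viable but small, was low in both BALB/cJ and DBA/2J in every tissue. In liver it had 3.99, 5.64 and 7.27 CPM in BALB/cJ, 4.42, 5.42 and 7.12 CPM in DBA/2J and 37.7, 43.9 and 60.3 CPM in C57Bl/6J. C57Bl/6J stood above the other strains without overlap, and those strains covered nearly the same range: BALB/cJ minus DBA/2J was -0.00 (adjusted p = 0.967). The fold was 8.07 in BALB/cJ (log2 fold change -3.01 ± 0.06, adjusted p = 1.01e-46) and 8.05 in DBA/2J (-3.01 ± 0.06, adjusted p = 2.14e-46). In muscle it was 6.91 and 6.47, and in adipose tissue without the 2 libraries 7.58 and 9.35, in BALB/cJ and DBA/2J. Rpl29 (chr9:106429454-106431568) had 298 of its 384 coding windows of 100 bases in 27 other annotated genes. Summed with the 1 copy row of the muscle table, the BALB/cJ difference from C57Bl/6J was -2.36 ± 0.05 there, against -2.79 ± 0.06 alone. In adipose tissue, with 3 copy rows summed in and all libraries, the difference from C57Bl/6J was -2.58 in BALB/cJ and -3.02 in DBA/2J, against -2.78 and -3.23 alone. The liver table held no copy row of it.

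Rpl35a, a large-subunit protein mutated in Diamond-Blackfan anaemia in people, was low in BALB/cJ. In muscle it had 4.11, 5.54 and 9.66 CPM in BALB/cJ, 39.7, 49.5 and 82.7 CPM in DBA/2J and 41.3, 49.4 and 60.1 CPM in C57Bl/6J. BALB/cJ was below the others without overlap, 8.09-fold lower than C57Bl/6J (log2 fold change -3.02 ± 0.06, adjusted p = 3.16e-46). In liver BALB/cJ had 7.702, 11.8 and 19.9 CPM, against 37.5, 68.3 and 141 CPM in DBA/2J and 52.99, 65.6 and 114 CPM in C57Bl/6J, and was 5.67-fold lower than C57Bl/6J (-2.50 ± 0.09, adjusted p = 9.3e-33). In adipose tissue without the 2 libraries it was 8.69-fold lower (-3.12 ± 0.20, adjusted p = 7.2e-20), with all BALB/cJ libraries below all C57Bl/6J ones. Of its 234 windows, 134 were found in 12 other genes. With the 1 copy row of the adipose table summed in, the BALB/cJ difference from C57Bl/6J over all libraries was -2.86, against -2.89 alone, and the other tables held no copy row.

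Rpl21, another large-subunit protein, was lower in both strains than C57Bl/6J. In liver it had 56.01, 62.6 and 75.00 CPM in BALB/cJ, 53.5, 69.4 and 95.4 CPM in DBA/2J and 116, 139.6 and 199.8 CPM in C57Bl/6J. C57Bl/6J did not overlap either, with log2 fold changes of -1.16 ± 0.05 in BALB/cJ (adjusted p = 9.52e-30) and -1.01 ± 0.05 in DBA/2J (adjusted p = 8.93e-27). In muscle they were -1.17 ± 0.04 and -0.93 ± 0.04. Its coding windows were shared with 40 other genes, 294 of 384. In adipose tissue the DBA/2J difference was -1.54 both alone and with 2 copy rows summed in.

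Rpl34, also of the large subunit, was low in DBA/2J. In muscle it had 46.9 to 81.5 CPM in BALB/cJ (mean 59.7), 26.1 to 43.5 CPM in DBA/2J (mean 34.2) and 49.5 to 67.6 CPM in C57Bl/6J (mean 59.9). DBA/2J was below both without overlap, at -0.81 ± 0.05 against C57Bl/6J. The difference from C57Bl/6J was -0.79 ± 0.09 in liver (adjusted p = 1.77e-11) and -1.67 ± 0.18 in adipose tissue (adjusted p = 4.06e-11), or -1.64 with its copy row summed in.

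Rps2, near the entry of the mRNA channel, was lower than C57Bl/6J by log2 values of -0.62 in BALB/cJ and -0.60 in DBA/2J liver, -0.79 and -0.98 in muscle, and, without the 2 libraries, -1.12 and -1.08 in adipose tissue. Its copy Rps2-ps10 had a median of 11.4 CPM in BALB/cJ liver, against 0.0415 CPM in DBA/2J and 0.0407 CPM in C57Bl/6J. Rps3a1, of the small subunit, differed from C57Bl/6J by -0.73 in BALB/cJ and -0.61 in DBA/2J liver. Rpl30, of the large subunit, was lower in BALB/cJ than C57Bl/6J by -0.76 ± 0.04 in liver (adjusted p = 3.45e-23), by -0.70 ± 0.04 in muscle and by -0.50 in adipose tissue without the 2 libraries (adjusted p = 0.0435, or 0.0561 with them). Rps29 was the called member most raised in BALB/cJ liver, with 110.5, 155 and 192 CPM, against 79.8, 111 and 143 CPM in DBA/2J and 78.2, 109 and 163 CPM in C57Bl/6J, overlapping ranges that gave 0.53 ± 0.06 against C57Bl/6J (adjusted p = 5.61e-12). All 72 of its coding windows are in Gm14303, and summed with that copy the liver difference was 0.52. In muscle BALB/cJ differed by -0.10 from C57Bl/6J (adjusted p = 0.0766) and by -0.16 from DBA/2J (adjusted p = 0.00365).

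Summing copies also turned up a difference that the member alone did not show. Rpl15 differed between DBA/2J and C57Bl/6J liver by 0.04 ± 0.05 (adjusted p = 0.533). Its copies Gm10020 and Rpl15-ps2 had medians of 5.93 and 6.22 CPM in DBA/2J liver, against 0.0723 and 0.0365 CPM in C57Bl/6J, and with them the difference was 0.28 ± 0.05 (adjusted p = 8.67e-06). In muscle Rpl15 gave 0.21 ± 0.03 alone and 0.41 ± 0.03 summed. In adipose tissue it gave -0.38 ± 0.12 alone (adjusted p = 0.0104) and -0.06 ± 0.13 summed (adjusted p = 0.703). Rpl13a, a large-subunit protein, gave -0.44 alone and -0.70 ± 0.18 summed in adipose tissue for DBA/2J against C57Bl/6J (adjusted p = 0.0018).

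Such copies were common. The tables held 124 rows, of 69 parent members, that aligned to a member over most of their length at 90% identity or more: 107 processed and 10 transcribed processed pseudogenes, 6 genes annotated as protein-coding and 1 lincRNA. They took a median of 0.0257%, 0.0321% and 0.00730% of liver reads in BALB/cJ, DBA/2J and C57Bl/6J, and 0.0315%, 0.0385% and 0.0116% of muscle reads. In adipose tissue they took 0.0856%, 0.0511% and 0.0406%. These adipose medians mix libraries with high and with low B cell markers. With the marker mean at 6.34 or more, they took 0.0569% to 0.1173%, 0.1552% to 0.2265% and 0.0279% to 0.0649% in that order. With it at 3.31 or less, they took 0.0284% to 0.038%, 0.0319% to 0.0557% and 0.0131% to 0.0294%. Of 85 members with a coding stretch of 100 bases, 58 had over 50% of such windows in another annotated transcript, 28 over 90% and 23 all of them, while 10 had none. Of the 8 members with no shared window in the liver table, 1 was higher and 0 lower in DBA/2J than C57Bl/6J, against 28.6% and 28.8% of genes. In BALB/cJ 1 was higher and 1 lower than C57Bl/6J, against 28.6% and 29.3%. Against DBA/2J, BALB/cJ had 0 higher and 4 lower, where 24.1% and 24.6% of genes were called. The higher one was in each case Rps19bp1 (0.25 in DBA/2J and 0.19 in BALB/cJ), which is no ribosomal subunit.

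Rplp1, which pairs with Rplp2 on the stalk, was higher in DBA/2J than C57Bl/6J by 0.23 in liver (adjusted p = 0.00101) and by 0.15 in muscle (adjusted p = 0.00875), and Rplp2 by 0.13 in liver (adjusted p = 0.047), a call that did not hold in 27 of the fits that each left out 1 library. In muscle Rpl22l1 had 15.3, 20.4 and 27.2 CPM in BALB/cJ, 23.5, 32.3 and 40.1 CPM in DBA/2J and 16.05, 21.7 and 43.7 CPM in C57Bl/6J. DBA/2J was mostly above both, by 0.54 ± 0.06 against C57Bl/6J (adjusted p = 4.09e-11), and BALB/cJ minus DBA/2J was -0.64 ± 0.06 (adjusted p = 1.4e-13). Rpl3l in muscle had 309.9, 346 and 419 CPM in BALB/cJ, 352, 449.6 and 843 CPM in DBA/2J and 333, 393 and 557 CPM in C57Bl/6J, and the overlapping ranges gave 0.22 ± 0.05 for DBA/2J against C57Bl/6J (adjusted p = 9.97e-05) and -0.35 ± 0.05 for BALB/cJ against DBA/2J (adjusted p = 6.21e-09). Rpl28, a large-subunit protein, and Rps3, at the mRNA entry of the small one, were higher in DBA/2J than C57Bl/6J muscle by 0.33 and 0.29. Rps27 was higher in DBA/2J than C57Bl/6J liver by 0.33 (adjusted p = 0.00256) and muscle by 0.24, and lower in adipose tissue by a log2 value of -0.67 ± 0.26 (adjusted p = 0.0295), where the fit with the B cell marker mean gave 0.15 (adjusted p = 0.393). Rpl36al, at 2.22 CPM per kilobase in liver, was lower there by -0.61 ± 0.17 in BALB/cJ (adjusted p = 0.00166) and -0.40 ± 0.17 in DBA/2J (adjusted p = 0.0383). Rps27rt differed by -0.64 ± 0.21 between BALB/cJ and DBA/2J liver (adjusted p = 0.0095). All 156 coding windows of 100 bases of Rps27 and of Rps27rt are found in the other. Both are members and were not summed, so how reads were placed between them is open. In adipose tissue Rpl3l differed between BALB/cJ and DBA/2J by -1.26 ± 0.48 with all libraries (adjusted p = 0.0306) and by -1.01 ± 0.47 without the 2 (adjusted p = 0.07).

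**Figure D3:**
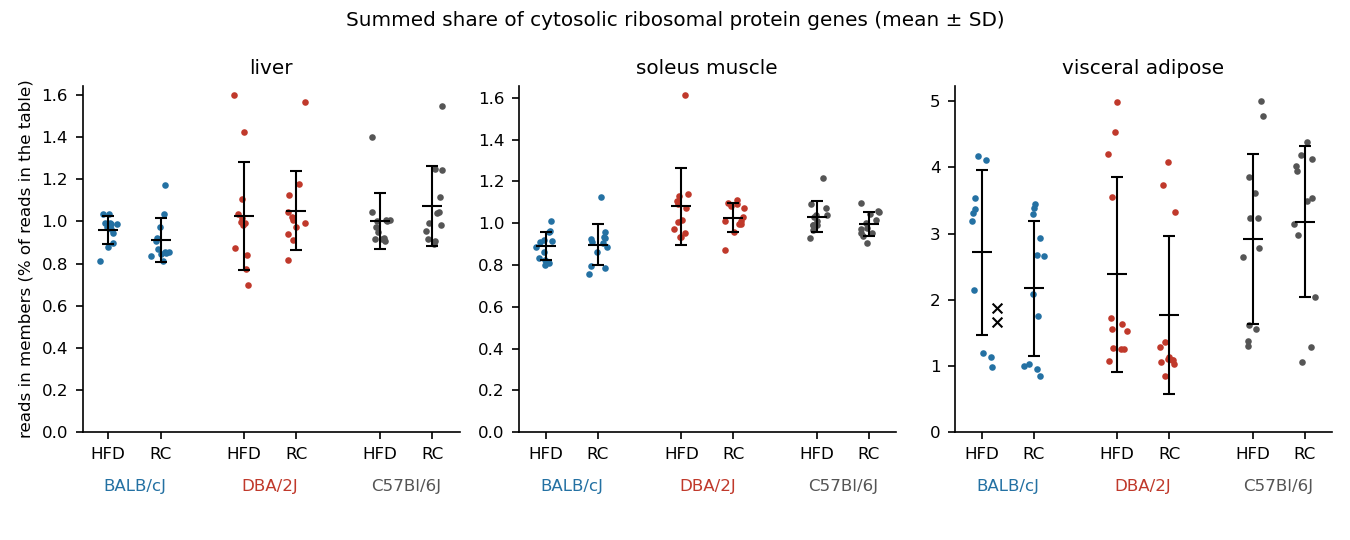
Share of the reads in each library that fell on members, in percent, by strain and diet in soleus muscle, liver and visceral adipose tissue. Points are animals, bars are mean ± SD and the crosses are the 2 adipose libraries against their label, left out of the mean. Liver and muscle lie between 0.698% and 1.61%, while adipose libraries spread from 0.847% to 5.01%.

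Summed over members, the lowest, median and highest share of reads in liver was 0.810%, 0.934% and 1.17% in BALB/cJ, 0.698%, 1.002% and 1.598% in DBA/2J and 0.894%, 0.995% and 1.55% in C57Bl/6J. In muscle it was 0.759%, 0.907% and 1.12% in BALB/cJ, 0.871%, 1.02% and 1.61% in DBA/2J and 0.908%, 1.01% and 1.22% in C57Bl/6J. The strains overlapped in both tissues. In adipose tissue it was 0.847%, 2.67% and 4.17% in BALB/cJ, 0.851%, 1.33% and 4.99% in DBA/2J and 1.06%, 3.24% and 5.01% in C57Bl/6J, ranges that overlap almost wholly but with a lower DBA/2J median.

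In adipose tissue the share of members moved with B cell markers. All 11 markers, among them Cd79a of the B cell receptor complex, were measured, and none is a member. Their mean had a lowest, median and highest value of 0.32, 7.93 and 8.61 log2 CPM in BALB/cJ, 0.81, 2.01 and 8.92 in DBA/2J and 1.53, 7.92 and 8.64 in C57Bl/6J. The libraries fell into clusters with none between 3.31 and 6.34 log2 CPM, apart from 1 of the 2 set aside, which had 4.04. The 40 libraries above had 1.76% to 5.01% of their reads in members, and the 30 below had 0.847% to 1.72%, without overlap. Above were 15 BALB/cJ, 7 DBA/2J and 18 C57Bl/6J libraries, and below 7, 17 and 6. T cell markers had medians of 6.74, 0.45 and 6.40 log2 CPM in BALB/cJ, DBA/2J and C57Bl/6J, and adipocyte markers 10.40, 11.61 and 10.17.

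With the B cell marker mean as a term in the fit and without the 2 libraries, BALB/cJ had 0 higher and 19 lower than C57Bl/6J, against 22.05% and 18.9%, and 2 higher and 40 lower than DBA/2J, against 19.7% and 19.7%. The member median of DBA/2J against C57Bl/6J was 0.08, compared with -0.40 without that term, and the difference of BALB/cJ from DBA/2J had a median of -0.20, compared with 0.19.

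**Figure D4:**
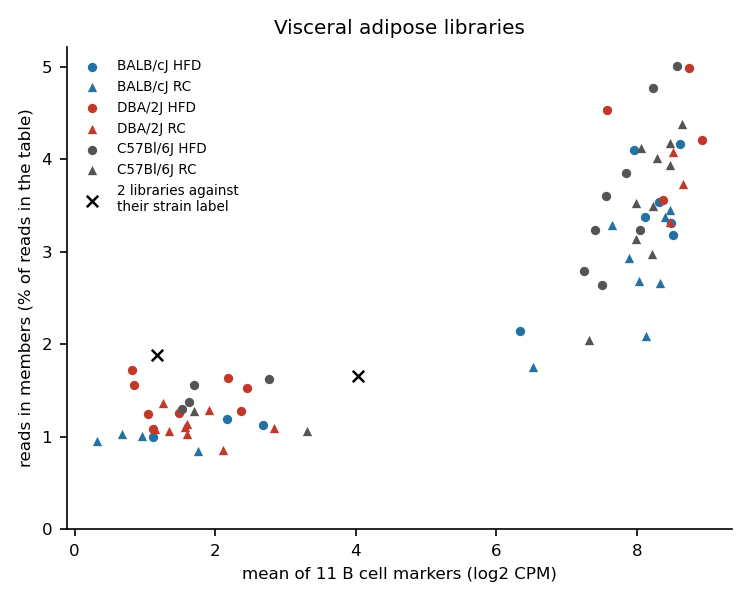
Share of reads in members (percent, vertical axis) against the mean of 11 B cell markers (log2 CPM, horizontal axis) in each visceral adipose library, coloured by strain, circles for HFD, triangles for RC and crosses for the 2 libraries against their label. The 40 libraries with the markers at 6.34 or more lie at 1.76% or more, and the 30 with them at 3.31 or less lie at 1.72% or less.

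Diet was the comparison of HFD with RC within the same strains and days. In liver 0 members were higher and 4 lower on HFD, where 10.9% and 10.3% of genes were called. Rpl22l1 had 11.2, 21.3 and 34.7 CPM (lowest, median, highest) on HFD and 17.1, 24.8 and 60.5 CPM on RC, overlapping ranges that differed by -0.30 ± 0.08 (n = 36 each, adjusted p = 0.00681). Rps16, of the small subunit, differed by -0.20 ± 0.06 (adjusted p = 0.0147), and Rpl15 and Rpl12, of the large one, by -0.12 ± 0.04 (adjusted p = 0.0314) and -0.16 ± 0.06 (adjusted p = 0.047). By strain, Rpl22l1 differed by -0.14 in BALB/cJ, -0.63 ± 0.15 in DBA/2J (adjusted p = 0.000918) and -0.12 in C57Bl/6J, but the test of a difference between strains gave F = 3.89 (adjusted p = 0.109). It gave 0 members in liver, where 15.7% of genes were called, and Rps19bp1 came next at F = 2.7 (adjusted p = 0.213).

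In muscle 4 members were higher and 0 lower on HFD, where 8.98% and 8.39% of genes were called. These were Rpl26 (0.31 ± 0.06, adjusted p = 0.000102), Rpl35a (0.18 ± 0.05, adjusted p = 0.00577), Rpl7l1 (0.09 ± 0.03, adjusted p = 0.0379) and Rps2 (0.10 ± 0.04, adjusted p = 0.0423). The diet effect on Rpl26 differed between strains (F = 17.4, adjusted p = 0.000315), the 1 such call among members, where 9.83% of genes had one. In BALB/cJ, Rpl26 had 2.78, 4.82 and 8.91 CPM on HFD and 1.899, 2.72 and 5.39 CPM on RC, a difference of 0.81 ± 0.10 (adjusted p = 6.66e-07). The difference was 0.08 in DBA/2J and 0.06 in C57Bl/6J. The B cell marker mean of BALB/cJ muscle had a median of 0.77 log2 CPM on HFD and -2.01 on RC. Its part in the result was not tested. For Rps2 the test gave F = 4.4 (adjusted p = 0.105).

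In adipose tissue 2 members were higher and 0 lower on HFD, where 1.63% and 1.03% of genes were called, or 2.07% and 1.52% without the 2 libraries, with the same 2 members. Rpl22l1 had 27.1, 49.7 and 116 CPM on HFD and 10.7, 37.9 and 75.8 CPM on RC, a difference of 0.65 ± 0.17 (adjusted p = 0.019), or 0.63 without the 2 libraries (adjusted p = 0.0246). Rpl39, of the large subunit, had 64.4, 119 and 284 CPM on HFD and 31.2, 85.2 and 228.7 CPM on RC, a difference of 0.58 ± 0.17 (adjusted p = 0.0427). Both pairs of ranges overlapped, and the Rpl39 call did not hold in 29 of the fits that each left out 1 library. Rpl9 came next at 0.38 (adjusted p = 0.0751). The test of a difference between strains called 0 members, against 0.0846% of genes, or 0.0967% without the 2 libraries; Rps2 had F = 2.07 (adjusted p = 0.706) and Rps18 F = 1.91 (adjusted p = 0.719).

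With the B cell marker mean in the adipose fit, 48 members were higher and 0 lower on HFD, where 10.1% and 7.44% of genes were called. They were 24 of 48 large-subunit and 24 of 33 small-subunit members, at a median over all members of 0.20, which was 0.18 without that term. Among them were Rpl9 (0.39 ± 0.08, adjusted p = 0.000641), Rps3a1 (0.34 ± 0.07, adjusted p = 0.000901) and Rpl39 (0.61 ± 0.13, adjusted p = 0.00109). The B cell marker mean had a median of 7.33 log2 CPM on HFD and 7.77 on RC, with 19 HFD and 21 RC libraries in the upper cluster and 15 of each in the lower.

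**Figure D5:**
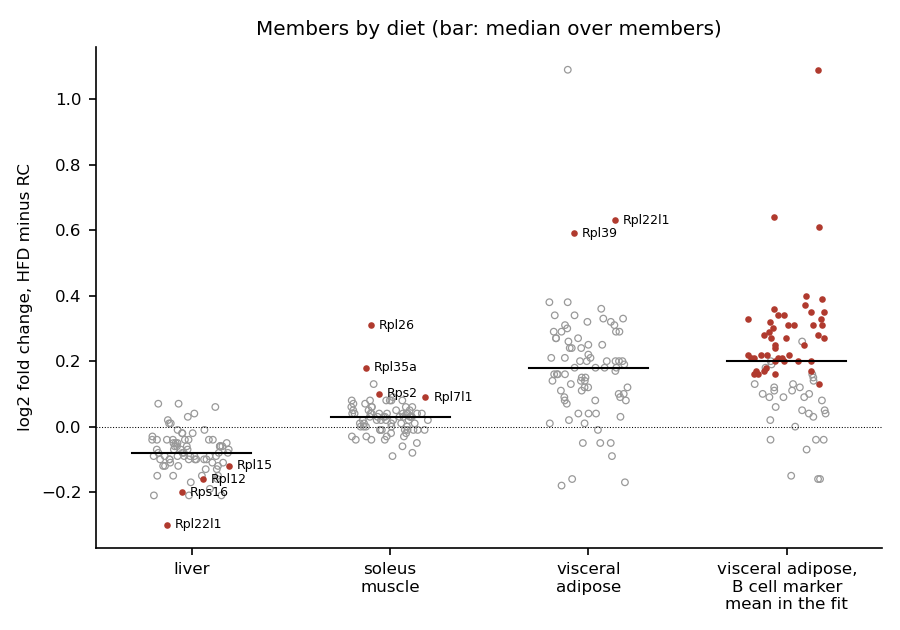
Log2 fold change of each member on HFD minus RC in liver, soleus muscle, visceral adipose tissue without the 2 libraries, and the same with the B cell marker mean in the fit. Each point is 1 gene, filled red where limma's adjusted p was under 0.05, and the bar is the median over members. The adipose medians of 0.18 and 0.20 differ little, while the filled points number 2 and 48.

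Day 33 was compared with day 5 over strains and diets. In liver 2 members were higher and 0 lower on day 33 than on day 5, where 3.73% and 3.89% of genes were called: Rpl35a (0.33 ± 0.09, adjusted p = 0.0168) and Rpl26 (0.25 ± 0.08, adjusted p = 0.0274), followed by Rps18 (0.28, adjusted p = 0.0614). Quantile normalization gave 7 members and the range of the animal number as a covariate 13. The shares of all genes above are those of the main fit and do not belong to these 2 fits. Members took 0.940% ± 0.106 of liver reads on day 5, 0.998% ± 0.171 on day 13 and 1.07% ± 0.203 on day 33 (SD, n = 24 each), with overlapping ranges. In muscle 1 was higher and 0 lower, against 6.86% and 5.49%. It was Rps13, of the small subunit, with 88.3, 116 and 149 CPM on day 5, 99.8, 116 and 134 CPM on day 13 and 95.6, 126 and 159 CPM on day 33, overlapping throughout, and day 33 differed from day 5 by 0.16 ± 0.05 (adjusted p = 0.0123). Rps19bp1 (-0.15, adjusted p = 0.0547) and Rpl7l1 (-0.10, adjusted p = 0.0622) came next. In adipose tissue no member was called, against 0.0363% and 0.00605% of genes, or 0.0907% and 0.0302% without the 2 libraries, and the smallest p was that of Rpl3l (0.93 ± 0.48, adjusted p = 0.674).

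Other genes of the ribosome and its assembly were counted beside the members. Fau, which encodes a small-subunit protein fused to a ubiquitin-like one, was higher in DBA/2J than C57Bl/6J by 0.38 in liver and 0.26 in muscle. The lists that follow are set against the shares of all genes called in the same comparisons, with adipose counts without the 2 libraries. Mitochondrial ribosomal proteins, 77 in number, had 31 higher and 6 lower in DBA/2J than C57Bl/6J liver, where 28.6% and 28.8% of genes were called. They had 22 and 11 in muscle, against 22.9% and 24.03%, and 37 and 3 in adipose tissue, against 29.8% and 25.1%. With the B cell marker mean in the adipose fit they had 7 and 7, where 18.02% and 15.7% of genes were called. Adipocyte markers had a median of 11.61 log2 CPM in DBA/2J and 10.17 in C57Bl/6J. Of 20 measured translation factors and other genes listed for TOP mRNAs, 0 were higher and 5 lower in DBA/2J than C57Bl/6J liver, 11 and 1 in muscle and 0 and 8 in adipose tissue. In BALB/cJ against C57Bl/6J they had 0 higher and 13 lower in liver, against 28.6% and 29.3%, 2 and 5 in muscle, against 24.6% and 26.5%, and 0 and 2 in adipose tissue, against 12.3% and 9.96%. Of 33 ribosome assembly genes, 3 were higher and 16 lower in DBA/2J than C57Bl/6J liver, 5 and 8 in muscle and 3 and 16 in adipose tissue. On HFD 7 of them were higher and 0 lower in liver, where 10.9% and 10.3% of genes were called, 14 and 0 in muscle, against 8.98% and 8.39%, and 0 and 0 in adipose tissue. Among the 14 was the small-subunit processome gene Heatr1 (0.21 ± 0.04, adjusted p = 1.79e-05). Of the genes of the mTOR and Myc pathways that signal to translation, 7 were higher and 6 lower in DBA/2J than C57Bl/6J among 15 in liver, 4 and 5 among 15 in muscle, and 7 and 1 among 16 in adipose tissue.

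The starts of members were read from RefSeq promoters on GRCm38.p6, matched by symbol for 66 members. A C followed by at least 4 more pyrimidines stood at an annotated start of 14 (21.2%), against 813 of 27025 genes (3.0%), and within 10 bases of one in 40 (60.6%), against 9297 (34.4%). The motif was searched on the gene's strand. Starts of this kind in 2 members are shown, 15 bases before and 15 from the annotated start on, with the pyrimidine run in capitals. Rps18, lower in both strains, and Rpl35a, lower in BALB/cJ, have runs of 9 and 8 pyrimidines. Another 2 annotated starts of Rpl35a have runs of 1 and 0, and those of Rpl26 and Rplp0 have none.
Rps18: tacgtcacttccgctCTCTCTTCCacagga
Rpl35a: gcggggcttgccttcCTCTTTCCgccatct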

How the data were processed

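The authors deposited 3 tables, 1 per tissue, with 1 column of log2 CPM (reads scaled to library size) per library. Per the submitters' processing notes, the authors used STAR 2.5.3a, edgeR and GRCm38; their counting of reads that map to several places is not given in the sources used here, and a member and its copies may share reads. Each deposited log2 CPM value came back to whole reads (100% within 0.05 reads at low counts) with a prior count of 0.25 reads in liver and 2 in muscle and adipose tissue, and CPM in the text are those reads over the effective library size. Of 224 samples, 8 repeat liver libraries of 4 animals were not analysed here. GENCODE M21 named 12602 of 12611, 13624 of 13637 and 16520 of 16542 rows.

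Strains, diets and days were compared with limma 3.58.1 (R 4.3.3) on the deposited log2 CPM, with 1 mean per group, a variance trend, genes at 0 log2 CPM or more in at least 4 animals, and Benjamini-Hochberg adjustment over all genes of a tissue, at 0.05. Strain differences average over diets and days. On simulated data with DBA/2J minus C57Bl/6J changes, 1.5-fold changes were called at 95.5% over the 12611 liver genes. They were called at 97.0% over the 13637 muscle genes and 97.0% over the 16541 adipose genes. Changes of 1.2-fold were called at 22.4%, 16.4% and 17.9%. Every simulated gene had the same dispersion, so these shares are not those of members. For Rpl4 the SE of that contrast was 0.03 in muscle and 0.14 in adipose tissue. Copies were rows that blastn 2.17.0 aligned to a member transcript at 90% identity or more over 80% of their length or that carry its name. Python 3.11.15 with pandas 2.3.3 and numpy 2.4.6 did the rest. Alternatives were other filters, scalings, priors and weights, the range of the animal number, diets apart, marker means as covariates, copies summed in and each animal left out. Those without the 2 adipose libraries and with all copy rows summed were added after seeing the data. The members, lists and named genes were chosen with earlier results of these data known. Named members are, per tissue and strain pair, the 3 highest and 3 lowest called, the 3 of smallest p for diet and for day, the 2 of smallest p for their interaction, the paralogs and stalk proteins, and the 3 highest and lowest per length; values of further members were chosen after they were seen. Animals of 1 number were checked across groups: the median correlation of their deviations was 0.04 for liver, 0.01 for muscle and -0.06 for adipose tissue, so the numbers do not pair them.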

Additional observations from a re-analysis of the deposited data

Results flagged for a closer look

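In 3 of 54 groups of 4 animals, 1 animal's share of reads in members lay far from the other 3, by a gap test that chance passes in about 1 in 20 groups. In muscle of DBA/2J on HFD at day 5, 1 animal had 1.61%, against 1.07% to 1.14% in the others. In adipose tissue of DBA/2J on HFD at day 13, 1 animal had 4.53%, against 1.25% to 1.27%, and its B cell marker mean was 7.57 log2 CPM. In adipose tissue of DBA/2J on RC at day 13, 1 animal had 3.74%, against 1.03% to 1.09%, and its B cell marker mean was 8.66. The diet effect on Rpl26 in muscle differed between strains, with F = 17.4 (limma adjusted p = 0.000315), and was seen in BALB/cJ, where Rpl26 was at 1.899 to 8.91 CPM.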

How the results depend on the processing

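Counts of called members are given here with all libraries. Those of the alternative fits stand without the share of all genes called in the same fit. They do not tell a change in members from a change in all genes. In liver, the contrast DBA/2J minus C57Bl/6J had 21 called members, BALB/cJ minus C57Bl/6J 29 and BALB/cJ minus DBA/2J 39, with 4 for diet, 2 for day and 0 for the interaction of diet and strain. In muscle the counts were 45, 26, 59, 4, 1 and 1, and in adipose tissue 45, 9, 9, 2, 0 and 0. No filter, a stricter filter, no variance trend, a prior count of 1, copies summed in and slow minus fast fibre markers as a covariate left every one of these counts within 1.5 times. So did leaving the 2 adipose libraries out. Of 1539 values of named members under alternatives other than leaving out 1 animal, 1408 kept direction and side of the threshold, 114 lost the call, 6 gained one and 11 changed sign. The cause of the changes below was not tested, except that each diet apart has fewer animals.

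Quantile normalization gave 2 members for diet and 7 for day in liver, 3 for day in muscle and 1 for diet in adipose tissue. Weights by voom gave 1 for day in liver and 2 in muscle. The range of the animal number as a covariate gave 13 for day in liver, 2 for diet and 3 for day in muscle, and in adipose tissue 29 for DBA/2J minus C57Bl/6J and 6 for diet. With the replicate number as a block, 1 was called for day in liver and 1 for diet in adipose tissue, and no other count moved by over 1.5 times. Same-numbered animals correlated above 0.1 in 28 of 76 liver pairs, 27 muscle pairs and 23 adipose pairs, so the numbers do not pair them. In RC animals alone, muscle had 16 for BALB/cJ minus C57Bl/6J and 35 for BALB/cJ minus DBA/2J, and adipose tissue 4 for BALB/cJ minus DBA/2J. In HFD animals alone, liver had 13, 16 and 11 in the order of strain pairs above, muscle 28 for DBA/2J minus C57Bl/6J, and adipose tissue 7 for DBA/2J minus C57Bl/6J and 4 for BALB/cJ minus DBA/2J. There liver Rpl22l1 gave -0.00 for DBA/2J against C57Bl/6J, compared with 0.25.

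With B cell markers as a covariate, adipose tissue had 10 for DBA/2J minus C57Bl/6J, 15 for BALB/cJ minus DBA/2J and 47 for diet. DBA/2J minus C57Bl/6J turned positive for Rps19 (0.06), Rpl14 (0.05), Rpl7 (0.05) and Rps27 (0.10). Without the 2 libraries as well, the strain pairs had 21, 19 and 42 and diet 48, and the same difference was 0.07 for Rps19, 0.08 for Rpl14, 0.08 for Rpl7, 0.00 for Rpl22, 0.15 for Rps27 and 0.03 for Rps27rt.

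With each animal left out in turn, liver counts were 17 to 26, 27 to 33 and 29 to 49 for the strain pairs, 2 to 9 for diet, 2 to 6 for day and 0 to 1 for the interaction. Diet reached 9 without 1 C57Bl/6J animal (HFD, day 13) or 1 DBA/2J animal (HFD, day 33), and 8 other animals moved it to 2, 7 or 8. Day reached 6 without 1 DBA/2J animal (HFD, day 33). Muscle counts were 37 to 53, 25 to 39 and 54 to 68, 2 to 7 for diet, 1 to 4 for day and 1 to 2 for the interaction. Diet was 7 without 1 BALB/cJ animal (RC, day 5). Day was 4 without 1 DBA/2J animal (HFD, day 5) or 1 BALB/cJ animal (RC, day 5), and the interaction was 2 without 1 C57Bl/6J animal (RC, day 33) or 1 DBA/2J animal (HFD, day 5). Adipose counts were 30 to 61, 9 to 14 and 5 to 23, 1 to 3 for diet, and 0 for day and interaction. For BALB/cJ minus DBA/2J the count was 23 and 19 without the DBA/2J animals of day 13 with a high member share (HFD and RC), 14 without a BALB/cJ animal (HFD, day 5) and 5 without another (RC, day 5). It was 14 for BALB/cJ minus C57Bl/6J without 1 C57Bl/6J animal (RC, day 13). No named member changed sign.

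Differences near 1.2-fold were mostly not called in the simulated data, at this depth and with the same dispersion for every gene. That share is not the share for members. Members whose copies share 100-base windows carry values that depend on how the authors placed reads. The planned comparison of members unique in the genome was not run, since no genome was given.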

Other observations

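The 2 adipose libraries that go against their BALB/cJ label had 1.66% and 1.88% of their reads in members, at B cell marker means of 4.04 and 1.18 log2 CPM. They were alike (Pearson r of 0.948 over genes) and had a correlation of at most 0.761 with any other adipose library. Besides Ins2, they had 15.52 and 15.57 log2 CPM of the glucagon gene Gcg, against -3.81 to 5.61 in the others.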
